A study of Mus musculus with 27 samples.

Results

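The genes described here are markers of the retinal pigment epithelium and of pigment granules: Rpe65, Rgr, Ttr, Lrat, Rdh5, Best1, Tyrp1, Pmel, Mlana and Dct. They were taken by symbol from a table of 55487 genes, and 9 of the 10 were counted in at least 1 library. The data are 3′ mRNA counts (QuantSeq, 100 ng of total RNA per library) from 27 retinas of mice aged 9 months. The 4 genotypes were wildtype (Gne+/+ C3+/+, n = 7), Gne+/- with intact C3 (n = 7), C3-/- with both Gne copies (n = 7), and Gne+/- C3-/- (n = 6). The Gne enzyme begins the making of sialic acid and C3 drives the complement cascade; the study asked how lowered sialylation affects the retina and whether complement is involved. Sequencing run 1 held 5, 5, 4 and 4 of these libraries and run 2 held 2, 2, 3 and 2. RNA came from retinal whole-mounts, and whether pigment epithelium was kept or stripped was not given in the sources used here, nor was the strain.

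The pigment epithelium is a single cell layer that lies against the photoreceptor outer segments. It returns spent chromophore to the photoreceptors through the visual cycle: LRAT esterifies all-trans retinol, RPE65 isomerises the ester to 11-cis retinol, and RDH5 oxidises that product to 11-cis retinal. RGR is an opsin of the pigment epithelium and Müller glia that binds all-trans retinal, TTR carries retinol together with its binding protein, and BEST1 is a chloride channel of the basolateral membrane. PMEL forms the fibrils on which melanin is laid down, MLANA takes part in PMEL processing, and TYRP1 and DCT are melanin-synthesis enzymes. These last proteins serve in melanosomes of choroidal melanocytes and, during development, of the pigment epithelium.

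Promoter sequence is shown for 4 genes, because pigment epithelium genes and melanosome genes are textbook targets of OTX2 and of MITF. Promoter entries of RefSeq were used for 7 of the 10 genes, while Ttr, Pmel and Mlana are named only. The 250 bases before each RefSeq start are given 5′ to 3′ on the gene's strand (GRCm38.p6). Capitals mark the E-box CATGTG (reverse CACATG), its longer M-box form TCATGTG (reverse CACATGA), which contains the E-box, and the OTX and CRX core TAATCC (reverse GGATTA), all searched on both strands. The windows are chr3:159598931-159599180 (plus strand) for Rpe65, chr14:37049015-37049264 (minus) for Rgr, chr4:80833963-80834212 (plus) for Tyrp1 and chr14:118052247-118052496 (minus) for Dct.
Rpe65: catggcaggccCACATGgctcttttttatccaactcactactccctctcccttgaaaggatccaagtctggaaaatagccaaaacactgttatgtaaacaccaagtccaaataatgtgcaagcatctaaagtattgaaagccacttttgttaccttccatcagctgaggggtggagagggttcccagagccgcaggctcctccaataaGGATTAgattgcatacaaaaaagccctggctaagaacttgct
Rgr: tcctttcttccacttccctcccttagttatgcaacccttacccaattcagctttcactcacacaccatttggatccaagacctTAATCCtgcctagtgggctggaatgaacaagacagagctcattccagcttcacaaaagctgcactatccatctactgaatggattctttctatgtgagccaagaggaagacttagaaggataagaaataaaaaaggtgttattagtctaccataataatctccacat
Tyrp1: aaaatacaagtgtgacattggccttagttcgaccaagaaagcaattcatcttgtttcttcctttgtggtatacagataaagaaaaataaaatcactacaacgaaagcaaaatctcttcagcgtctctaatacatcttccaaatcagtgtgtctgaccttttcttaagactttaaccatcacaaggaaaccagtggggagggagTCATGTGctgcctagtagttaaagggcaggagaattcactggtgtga
Dct: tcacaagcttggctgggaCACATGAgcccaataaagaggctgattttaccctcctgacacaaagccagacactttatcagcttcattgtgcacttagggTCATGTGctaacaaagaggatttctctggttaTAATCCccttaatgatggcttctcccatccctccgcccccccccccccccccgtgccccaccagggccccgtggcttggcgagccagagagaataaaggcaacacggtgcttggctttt
Rpe65 held a reverse E-box starting 239 bases and a reverse OTX and CRX core starting 42 bases before the start. Rgr held the OTX and CRX core at 167 bases, and Best1, whose sequence is not shown, held it at 227 bases. Tyrp1 held an M-box at 47 bases. Dct held M-boxes in each orientation, at 232 and 151 bases, and the OTX and CRX core at 119 bases. The windows of Lrat and Rdh5 held none of these letters. Over 32851 promoter windows of the same length, 12.3% held the E-box, 3.25% the M-box and 6.25% the OTX and CRX core. These matches describe letters only.

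Libraries held 13.5 to 34.2 M counts, and levels are given as CPM, the depth-scaled count on TMM-adjusted library sizes. On that scale 3 counts amount to 0.0826 to 0.23 CPM. Per the labels each library came from its own mouse, and p-values measure the spread between these libraries. Targeted genes followed the labels: Gne was 99.2 to 162 CPM in run 1 libraries with both copies and 32 to 56.7 CPM with 1 copy, and 43 to 55.5 against 13 to 16.4 CPM in run 2. C3 was 53.9 to 285 CPM in libraries with C3 and 0 to 3.6 CPM in C3-/- and Gne+/- C3-/- libraries. The mean of 4 Y-linked genes was above 10 CPM in run 1 for 0 of 5 wildtype, 2 of 5 Gne+/-, 4 of 4 C3-/- and 2 of 4 Gne+/- C3-/- retinas; the run 2 counts were 2 of 2, 2 of 2, 0 of 3 and 2 of 2. Its part in the genotype and run results was not tested. Among rod photoreceptor markers, Gnat1, the rod transducin alpha subunit, measured 3320 to 9530 CPM, Sag, the rod arrestin, 1830 to 4030 CPM and Nrl, a rod transcription factor, 662 to 2280 CPM, so that defining genes of the labelled tissue were present in every library. The 6 pigment epithelium genes summed to 55.3 to 800 CPM and the 4 melanosome genes to 6.39 to 53.3 CPM. In bulk tissue, fewer cells of a type and less RNA per cell cannot be told apart.

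Rpe65 (ENSMUSG00000028174, GRCm38 chr3:159599175-159625321, plus strand), the visual cycle isomerase, was present in every library, at 3.98 to 38.5 CPM. Rpe65 levels of run 1 were 17.8, 7.92, 4.98, 5.17 and 4.88 CPM (wildtype mice 1, 2, 4, 5 and 6) and 9.81, 11.8, 6.61, 11.7 and 7.72 CPM (Gne+/- mice 1, 2, 3, 4 and 5). For Rpe65 the C3-/- mice numbered 1, 2, 5 and 6 gave 15.9, 8.12, 14.3 and 3.98 CPM, and the Gne+/- C3-/- mice numbered 3, 4, 5 and 6 gave 14.7, 12.2, 9.496 and 9.25 CPM. The genotypes overlapped in run 1, and the wildtype group held both a high library (mouse 1) and 3 low ones. Rpe65 levels of run 2 were 8.04 and 7.33 CPM (wildtype mice 7 and 8) and 9.46 and 10.4 CPM (Gne+/- mice 7 and 8). For Rpe65 the C3-/- mice numbered 7, 8 and 9 gave 27.5, 8.32 and 6.49 CPM, and the Gne+/- C3-/- mice numbered 7 and 8 gave 16.9 and 38.5 CPM. In run 2, Gne+/- C3-/- mouse 8 and C3-/- mouse 7 stood above all other libraries, and both Gne+/- C3-/- libraries lay above the wildtype and Gne+/- libraries, as they did for 7.45% of all genes.

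Rgr (ENSMUSG00000021804, chr14:37034909-37048964, minus strand), the retinal-binding opsin, was detected in every library, and its run 2 levels lay apart from those of run 1. Rgr levels of run 1 were 171, 127, 63.9, 78.6 and 180 CPM (wildtype mice 1, 2, 4, 5 and 6) and 98.7, 107, 78.1, 142 and 173 CPM (Gne+/- mice 1, 2, 3, 4 and 5). For Rgr the C3-/- mice numbered 1, 2, 5 and 6 gave 158, 97.99, 140 and 114 CPM, and the Gne+/- C3-/- mice numbered 3, 4, 5 and 6 gave 162, 198, 119 and 104 CPM. Each genotype spanned much of the same range in run 1. Rgr levels of run 2 were 24.99 and 13.0 CPM (wildtype mice 7 and 8) and 13.8 and 13.7 CPM (Gne+/- mice 7 and 8). For Rgr the C3-/- mice numbered 7, 8 and 9 gave 22.8, 17.7 and 10.3 CPM, and the Gne+/- C3-/- mice numbered 7 and 8 gave 25.5 and 56.8 CPM. Every run 2 library lay below every run 1 library. Within run 2 both Gne+/- C3-/- libraries were above all others, as they were for 3.56% of all genes.

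Ttr (ENSMUSG00000061808, chr18:20665280-20674321, plus strand), the retinol and thyroxine carrier, had the most counts of the 10 genes, 121091 over all libraries. Ttr levels of run 1 were 417, 451, 128, 243 and 594 CPM (wildtype mice 1, 2, 4, 5 and 6) and 268, 247, 219, 255 and 468 CPM (Gne+/- mice 1, 2, 3, 4 and 5). For Ttr the C3-/- mice numbered 1, 2, 5 and 6 gave 401, 292, 316 and 323 CPM, and the Gne+/- C3-/- mice numbered 3, 4, 5 and 6 gave 451, 508, 440 and 415 CPM. Within run 1 the Gne+/- C3-/- libraries were all above the C3-/- libraries, whereas wildtype spanned both groups. These 2 knockout groups did not overlap, in either direction, for 2.11% of all genes in run 1. Ttr levels of run 2 were 53.2 and 59.7 CPM (wildtype mice 7 and 8) and 64.7 and 46.9 CPM (Gne+/- mice 7 and 8). For Ttr the C3-/- mice numbered 7, 8 and 9 gave 112, 52.8 and 29.7 CPM, and the Gne+/- C3-/- mice numbered 7 and 8 gave 55.5 and 154 CPM. The run 2 levels were low, with Gne+/- C3-/- mouse 8 and C3-/- mouse 7 the highest, and Gne+/- C3-/- mouse 8 reached into the run 1 range.

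Rdh5 (ENSMUSG00000025350, chr10:128913593-128922888, minus strand), the 11-cis retinol dehydrogenase, shares 53.9% of its span with Bloc1s1 but 0% of its last 500 bases, where 3′ reads fall. Rdh5 levels of run 1 were 30.4, 13.9, 9.62, 16.03 and 21.7 CPM (wildtype mice 1, 2, 4, 5 and 6) and 21.4, 20.2, 17.98, 24.4 and 26.7 CPM (Gne+/- mice 1, 2, 3, 4 and 5). For Rdh5 the C3-/- mice numbered 1, 2, 5 and 6 gave 33.1, 19.4, 24.4 and 23.2 CPM, and the Gne+/- C3-/- mice numbered 3, 4, 5 and 6 gave 14.97, 34.8, 22.9 and 24.6 CPM. The genotypes overlapped. Rdh5 levels of run 2 were 14.4 and 7.86 CPM (wildtype mice 7 and 8) and 6.36 and 7.01 CPM (Gne+/- mice 7 and 8). For Rdh5 the C3-/- mice numbered 7, 8 and 9 gave 17.8, 10.4 and 7.96 CPM, and the Gne+/- C3-/- mice numbered 7 and 8 gave 8.52 and 31.3 CPM. Gne+/- C3-/- mouse 8 was again the highest in run 2, while mouse 7 of that genotype was at the run 2 median.

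Lrat (ENSMUSG00000028003, chr3:82892579-82903973, minus strand), which makes the substrate of RPE65, was listed at 0 in all 27 libraries. Rbm46os on the opposite strand covers 100% of its span, and the deposited counting used no strand and left out reads shared by overlapping genes. The 0 is therefore not a measure of expression. Slc16a8 and Kcnj13 of the pigment epithelium and Mc1r of melanocytes were at 0 for spans likewise covered over 100%.

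Best1 (ENSMUSG00000037418, chr19:9985174-10001633, minus strand), the chloride channel, had 406 counts over all libraries and was at 0 in 7 of 27. Best1 levels of run 1 were 1.68, 0.423, 0, 0.205 and 0.284 CPM (wildtype mice 1, 2, 4, 5 and 6) and 1.42, 1.43, 0.717, 0.611 and 0 CPM (Gne+/- mice 1, 2, 3, 4 and 5). For Best1 the C3-/- mice numbered 1, 2, 5 and 6 gave 0, 0, 0 and 0 CPM, and the Gne+/- C3-/- mice numbered 3, 4, 5 and 6 gave 1.76, 0.138, 0.583 and 0.423 CPM. The 4 C3-/- libraries of run 1 were at 0, below the 4 Gne+/- C3-/- libraries, and 1 wildtype and 1 Gne+/- library were at 0 as well. The 0.138 CPM of Gne+/- C3-/- mouse 4 was below the 0.207 CPM that 3 counts amount to in that library. Of all genes, 2.11% had C3-/- and Gne+/- C3-/- groups that did not overlap in run 1, in either direction. Best1 levels of run 2 were 2.02 and 2.28 CPM (wildtype mice 7 and 8) and 1.17 and 0 CPM (Gne+/- mice 7 and 8). For Best1 the C3-/- mice numbered 7, 8 and 9 gave 1.78, 0.1101 and 0.944 CPM, and the Gne+/- C3-/- mice numbered 7 and 8 gave 2.19 and 0.936 CPM. In run 2 all 3 C3-/- libraries held Best1 counts, and the C3-/- and Gne+/- C3-/- libraries overlapped.

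Dct (ENSMUSG00000022129, chr14:118012790-118052244, minus strand), dopachrome tautomerase, was the most counted melanosome gene, with 6273 counts and 0 libraries at 0. Dct levels of run 1 were 9.45, 14.3, 4.98, 10.96 and 7.21 CPM (wildtype mice 1, 2, 4, 5 and 6) and 10.7, 12.1, 9.17, 12.6 and 8.48 CPM (Gne+/- mice 1, 2, 3, 4 and 5). For Dct the C3-/- mice numbered 1, 2, 5 and 6 gave 17.3, 5.895, 16.2 and 10.7 CPM, and the Gne+/- C3-/- mice numbered 3, 4, 5 and 6 gave 9.21, 39.4, 22.1 and 10.4 CPM. The genotypes overlapped, and Gne+/- C3-/- mouse 4 stood highest. Dct levels of run 2 were 9.401 and 10.98 CPM (wildtype mice 7 and 8) and 12.7 and 9.43 CPM (Gne+/- mice 7 and 8). For Dct the C3-/- mice numbered 7, 8 and 9 gave 27.2, 10.1 and 10.7 CPM, and the Gne+/- C3-/- mice numbered 7 and 8 gave 3.08 and 13.97 CPM. There C3-/- mouse 7 was the highest and Gne+/- C3-/- mouse 7 the lowest, so the genotypes did not fall in the order of run 1.

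The other melanosome genes had low levels, and Tyrp1 and Mlana reached 0 in some libraries. Tyrp1 (ENSMUSG00000005994, chr4:80834123-80851719, plus strand), a melanin-synthesis enzyme, ranged from 0 to 2.96 CPM in run 1 (median 0.776) and from 0 to 4.67 CPM in run 2 (median 1.1), and was at 0 in 3 libraries. Pmel (ENSMUSG00000025359, chr10:128704195-128720238, plus strand), the melanosome fibril protein, ranged from 0.623 to 5.53 CPM (median 2.23) and from 0.946 to 6.56 CPM (median 2.12), with 21% of its last 500 bases shared with another gene. Mlana (ENSMUSG00000024806, chr19:29697824-29708634, plus strand) ranged from 0 to 7.95 CPM (median 1.39) and from 0 to 1.83 CPM (median 0.663), with 2 libraries at 0. For these 3 genes the genotypes overlapped within run 1. In run 2 the Gne+/- C3-/- libraries were below each of the other genotypes in Pmel, with a mean of 1.47 CPM against 4.31 in wildtype, 3.92 in Gne+/- and 4.11 in C3-/-. In those pairs the groups did not overlap, in either direction, for 33.3%, 36.2% and 23.4% of all genes. The share of genes below all other genotypes was not counted. For Mlana the run 2 wildtype libraries (mean 0.11 CPM) were below the Gne+/- (1.46) and Gne+/- C3-/- (0.834) libraries, and the last 2 groups did not overlap either. Those 3 pairs did not overlap for 31.0%, 33.3% and 36.2% of all genes. The wildtype values were 0 and 0.22 CPM, where 3 counts amount to 0.124 and 0.132 CPM. The highest Mlana value, and the highest Dct value, came from Gne+/- C3-/- mouse 4.

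**Figure D1:**
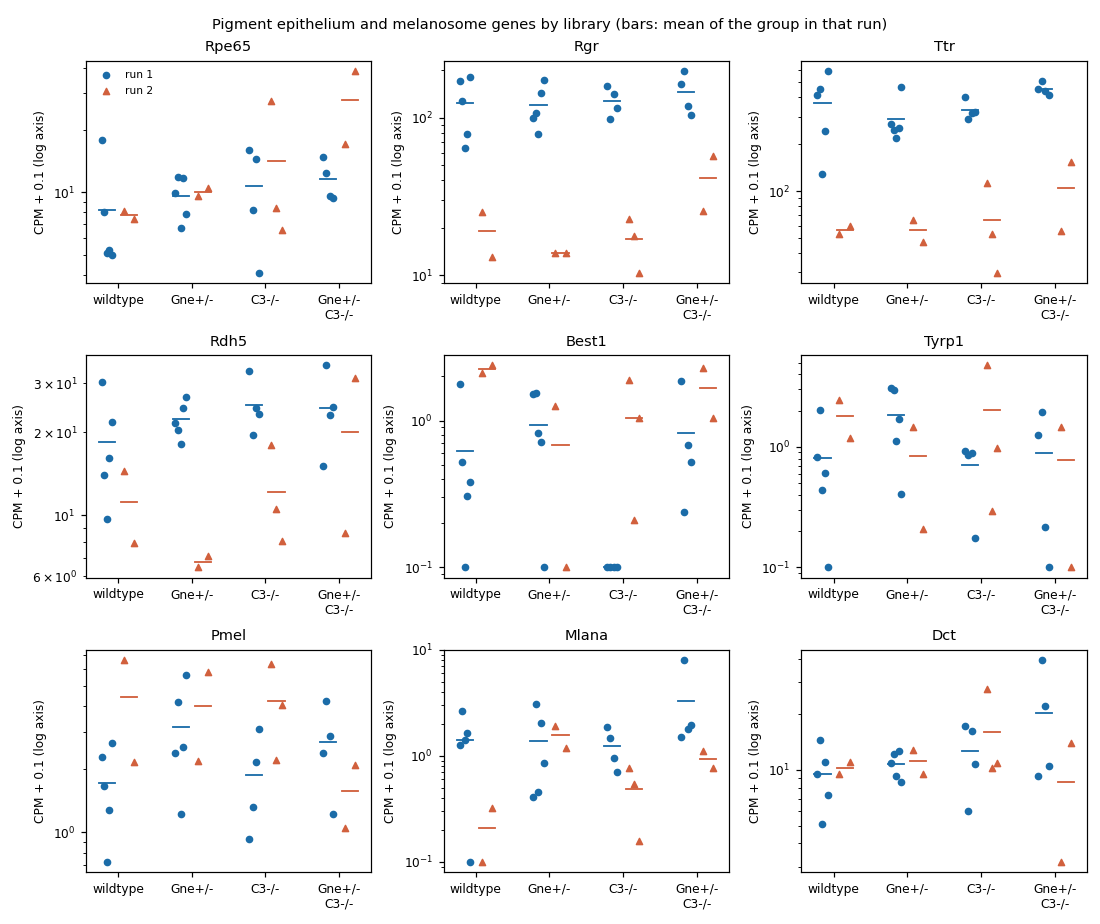
Level of each of the 9 counted genes (CPM plus 0.1, log axis) in every library, by genotype; circles are run 1, triangles run 2, and bars are the mean of the genotype in that run. Rgr in run 2 (10.3 to 56.8 CPM) lies below run 1 (63.8 to 198 CPM), while Rpe65 and Dct overlap between the runs.

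The first comparison asks whether losing a copy of Gne changed these genes with C3 present. Of the 9 genes, 0 passed edgeR's quasi-likelihood test with Benjamini-Hochberg adjustment over 17409 genes (threshold 0.05) in Gne+/- against wildtype, where 0.00574% of all genes passed. None had an unadjusted p under 0.05 (0 of 9), the lowest p being 0.269, and DESeq2 called 0 as well. The log2 fold changes of the 9 genes ran from -0.25 to 0.97, with 7 above 0 and a median of 0.26, beside 0.005 over all genes tested. In run 1, 0 of the 9 genes had groups that did not overlap, where 0.592% of genes did. In run 2, with 2 libraries on each side, 4 of 9 did not overlap against 31.0% of all genes: Rpe65 and Mlana were higher and Rdh5 and Best1 lower in Gne+/-.

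With C3 absent, Gne+/- C3-/- against C3-/-, 0 of 9 genes passed (edgeR; 0.00574% of all genes; DESeq2 0), and Rgr alone had an unadjusted p under 0.05. Rgr's log2 fold change was 0.62 (SE 0.283, adjusted p = 1), and that of Ttr 0.53 (SE 0.3, adjusted p = 1). Without Gne+/- C3-/- mouse 8 these were 0.29 and 0.28. The median over the 9 genes was 0.46, beside -0.005 over all genes. In run 1, 2 of 9 genes had groups that did not overlap, both higher in Gne+/- C3-/-, against 2.11% of all genes. They were Ttr (414 to 508 against 292 to 401 CPM) and Best1 (0.138 to 1.76 CPM against 4 libraries at 0). The lowest of these Best1 values, in Gne+/- C3-/- mouse 4, was below the 0.207 CPM that 3 counts amount to in that library. In run 2 both genes overlapped. There 2 of 9 genes did not overlap, Rgr higher and Pmel lower in Gne+/- C3-/-, against 23.4% of all genes. Best1 had a fitted log2 fold change of 2.50 (SE 1.3, adjusted p = 1), a value that depends on the prior count where libraries are at 0.

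The difference between these Gne effects, the interaction of Gne and C3, was past the threshold for 0 of 9 genes and for 0.0% of all genes (edgeR; DESeq2 called 0 of the 9, and 0 of the 9 had an unadjusted p under 0.05). The largest estimates among the better counted genes were 0.78 for Ttr (SE 0.417, adjusted p = 1) and 0.77 for Rgr (SE 0.393, adjusted p = 1). In each run alone the Rgr estimate was 0.24 and 1.74, and that of Ttr 0.78 and 0.71, for run 1 and run 2. Without Gne+/- C3-/- mouse 8 they were 0.45 for Rgr and 0.52 for Ttr.

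C3 loss was compared without and with the Gne change. In C3-/- against wildtype, 0 of 9 genes passed (edgeR; 0.167% of all genes; DESeq2 0; 0 with an unadjusted p under 0.05), and in run 1 0 of 9 had groups that did not overlap (2.18% of genes), while in run 2 Best1 alone did not (lower; 21.1% of genes). Best1 had the largest estimate, -2.27 (SE 1.24, adjusted p = 0.999). In Gne+/- C3-/- against Gne+/-, 0 of 9 passed (edgeR; 0.19% of all genes; DESeq2 0), and 2 had an unadjusted p under 0.05. These were Rgr, with a log2 fold change of 0.73 (SE 0.287, adjusted p = 0.701), and Ttr, with 0.73 (SE 0.301, adjusted p = 0.723). Without the filter on low counts both passed (adjusted p = 0.00276 for Rgr and 6.99e-05 for Ttr, at log2 fold changes of 0.74; 1.04% of 29460 genes passed there), the only setting of those tried in which a genotype comparison called any of the 9 genes. Rgr's estimate was 0.27 in run 1 alone and 1.58 in run 2 alone, and Ttr's 0.62 and 0.91; without Gne+/- C3-/- mouse 8 they were 0.43 and 0.51. In run 1 0 of 9 genes had groups that did not overlap (2.4% of genes). In run 2 5 of 9 did not, against 36.2% of all genes, with Rpe65, Rgr and Rdh5 higher and Pmel and Mlana lower.

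Gne+/- C3-/- against wildtype had 0 of 9 genes past the threshold (edgeR; 0.155% of all genes; DESeq2 0), and 0 of 9 did not overlap in run 1 (2.02% of genes). In run 2 4 of 9 did not, against 33.3% of all genes, with Rpe65, Rgr and Mlana higher and Pmel lower. Rpe65 and Dct had an unadjusted p under 0.05. Rpe65's log2 fold change was 0.96 (SE 0.369, adjusted p = 0.789), with 0.50 in run 1 alone and 1.87 in run 2 alone, and 0.64 without Gne+/- C3-/- mouse 8 and C3-/- mouse 7, a setting chosen after seeing the data. Dct's was 0.75 (SE 0.369, adjusted p = 1), with 1.12 in run 1 and -0.23 in run 2, and 0.29 without Gne+/- C3-/- mouse 4. Rgr (0.57, SE 0.285), Rdh5 (0.59, SE 0.294) and Ttr (0.49, SE 0.301) each had an adjusted p of 1. Their estimates without those libraries were 0.26, 0.18 and 0.24. The comparisons share groups, so their estimates are not independent of each other. Of known changes simulated in random genes of all levels in Gne+/- C3-/- against Gne+/-, 35% of the 2-fold and 66% of the 4-fold ones were recovered.

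**Figure D2:**
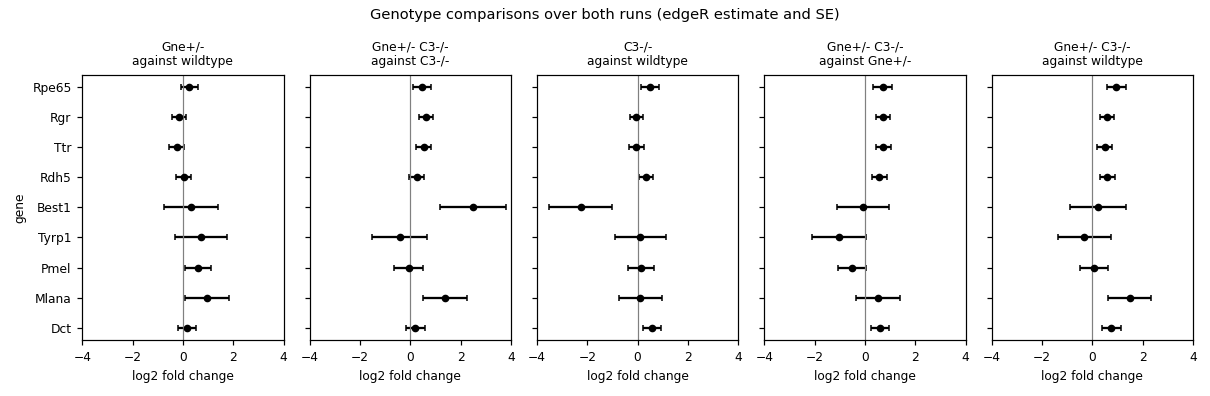
Log2 fold change of each gene (points) with its SE (bars) in 5 genotype comparisons over all 27 libraries, from edgeR with the sequencing run in the model. Estimates for Rgr and Ttr are above 0 in Gne+/- C3-/- against each of the other genotypes (0.49 to 0.73). Those for Rpe65, Rdh5, Dct and Mlana are above 0 there too. Best1 has the widest errors, and no gene passed the threshold.

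Lens, blood and other neighbouring tissue also varied between libraries. Of 9 lens genes 2 were at 0 in all libraries, Cryaa and Cryba1, under covered spans. Lens genes summed to 0.284 to 139 CPM in wildtype, 108 to 1330 in Gne+/-, 0.3 to 95.9 in C3-/- and 3.79 to 135 CPM in Gne+/- C3-/- libraries of run 1. In run 2 they summed to 4.13 to 7.01 CPM in wildtype and 3.69 to 4.5 CPM in Gne+/- libraries. There the C3-/- libraries gave 3.78 to 20.5 CPM and the Gne+/- C3-/- libraries 1.64 to 55.3 CPM. Ciliary and iris epithelium genes, 5 of 5 counted, summed to 127 to 335 CPM in run 1 and 146 to 258 CPM in run 2. Most of that sum was Aqp1, at 117 to 320 and 126 to 249 CPM. Car14 measured 3.52 to 19.7 and 6.69 to 15.1 CPM, Wfdc1 1.23 to 8.02 and 0 to 3.94 CPM. Otx1 measured 0 to 1.94 and 0.606 to 5.81 CPM. Erythrocyte genes, 4 of 5 counted, summed to 9.26 to 686 and 11.2 to 85.4 CPM. Within that list Hbb-bs measured 9.26 to 648 CPM in run 1 and 4.84 to 41.3 CPM in run 2. Hba-a1 measured 0 to 0.185 and 1.59 to 26.3 CPM, and Hba-a2 0 and 1.95 to 20.8 CPM. The part of lens, ciliary and blood genes in the genotype estimates above was not tested.

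Between the runs, 3 of the 9 genes passed, all lower in run 2, where 59.5% of all genes passed in either direction; a share below that background says nothing particular about these genes. The mean of Rgr was 22 ± 14.2 CPM in run 2 (SD, n = 9) and 128 ± 39.1 CPM in run 1 (n = 18), and Rgr fell by 2.64 on the log2 scale (SE 0.241, edgeR adjusted p = 2.55e-10). Ttr fell by 2.39 (SE 0.251, adjusted p = 8.71e-09) and Rdh5 fell by 0.93 (SE 0.228, adjusted p = 0.00069). Rgr alone of the 9 had run 2 libraries all below those of run 1, a pattern that 10.6% of all genes showed. Rpe65 (0.43, SE 0.27, adjusted p = 0.168), Dct (-0.09, SE 0.278, adjusted p = 0.792), Pmel (0.68, SE 0.404, adjusted p = 0.149) and Tyrp1 (0.59, SE 0.821, adjusted p = 0.556) did not pass. Leaving out C3-/- mouse 7 brought Tyrp1 to 0.03, leaving out wildtype mouse 7 brought Pmel to 0.38, and leaving out Gne+/- C3-/- mouse 8 brought Rpe65 to 0.22. Neither of the remaining genes passed, Best1 (2.21, SE 0.984, adjusted p = 0.0525) and Mlana (-1.43, SE 0.708, adjusted p = 0.0809), both of which DESeq2 called. All 4 genotypes were present in each run, and the labels give no other record of how the runs differed.

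**Figure D3:**
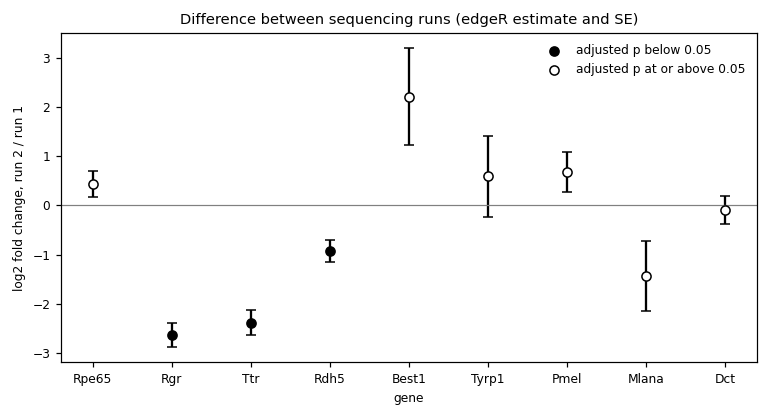
Log2 fold change of run 2 against run 1 (points) with its SE (bars) for the 9 genes, from edgeR with genotype in the model; filled points passed the adjusted threshold of 0.05. Rgr (-2.64), Ttr (-2.39) and Rdh5 (-0.93) are filled and below 0.

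The proportions of these genes to each other within a library differed between the runs. The ratio of Rgr to Rpe65 counts was 9.02 to 36.8 (median 12.1) in run 1 and 0.828 to 3.11 (median 1.51) in run 2, without overlap. Ttr to Rpe65 was 20.9 to 122 (median 34.5) and 3.28 to 8.14 (median 4.57), also without overlap. Rdh5 to Rpe65 was 1.02 to 5.83 (median 2.29) and 0.503 to 1.78 (median 0.812), with overlap. Ttr to Rgr overlapped between the runs, 1.79 to 3.99 (median 2.75) and 2.13 to 4.91 (median 2.99). The ratios were chosen after the values were seen and are given as a description, with no test; those to Rpe65 restate the lower Rgr, Ttr and Rdh5 beside a gene that did not pass. A ratio between genes compares counts, and it does not depend on library scaling.

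Marker lists of other cells also held genes that passed between the runs, and several lists held genes of both directions. Of all genes, 59.5% passed there in either direction, so counts in such short lists are a description only. Of 6 fibroblast and sclera genes 3 passed, all lower in run 2 (Fn1, Col1a1 and Lum), and the list summed to 42.7 to 114 CPM in run 1 and 14.6 to 23.4 CPM in run 2. Of 5 Müller glia genes 2 were higher (Apoe, 1.62, and Slc1a3, 0.38) and 3 lower (Rlbp1, -1.99, Aqp4, -0.98, and Glul, -0.34 on the log2 scale). Of 5 endothelium and choroid genes Plvap (2.82) and Pecam1 (1.94) were higher and Emcn (-1.44) and Kdr (-0.74) lower. Their sums, 2480 to 4030 and 2300 to 3460 CPM for Müller glia and 202 to 340 and 134 to 225 CPM for endothelium, hide these opposite changes. The erythrocyte sum given above hid such changes too. Hba-a1 (9.58) and Hba-a2 (10.8) were higher in run 2 and Hbb-bs (-2.15) lower, while Hbb-bt did not pass (-0.66, edgeR adjusted p = 0.485). Of the 3 rod markers given above, Nrl fell by 1.28 (SE 0.0764, edgeR adjusted p = 5.09e-16), while Gnat1 (-0.26, adjusted p = 0.13) and Sag (0.20, adjusted p = 0.109) did not pass. The part of these in the lower Rgr, Ttr and Rdh5 was not tested.

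Other genes of the same pathways were called between the runs at shares near the 59.5% of all genes, which says nothing particular about them. Of 10 other retinoid cycle genes, all tested, 0 passed in each of the 6 genotype comparisons (edgeR), and 4 passed as higher and 2 as lower in run 2. Rlbp1, the retinaldehyde-binding protein of Müller glia and pigment epithelium, measured 429 to 1210 CPM (median 755) in run 1 and 165 to 239 CPM (median 198) in run 2. Rdh12, a photoreceptor retinol dehydrogenase, measured 89.5 to 384 CPM (median 197) and 285 to 470 CPM (median 387). Rbp3, which carries retinoids between photoreceptors and pigment epithelium, measured 760 to 1220 and 642 to 1130 CPM. Dhrs3, which reduces all-trans retinal, measured 85.4 to 249 and 104 to 155 CPM.

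Of 12 other pigment epithelium genes, 10 were tested, and 0 passed in each genotype comparison, while 2 passed as higher and 3 as lower in run 2. Otx2, a transcription factor also made by photoreceptors and bipolar cells, measured 331 to 578 CPM in run 1 and 257 to 362 CPM in run 2. Mitf, the regulator of pigment cell genes, measured 31.5 to 60 and 49.1 to 75.4 CPM. Enpp2, the lysophospholipase D autotaxin, measured 13.1 to 107 and 39.8 to 65.4 CPM, and the keratin gene Krt18 14.7 to 56.1 and 9.2 to 23.2 CPM. Of 14 other melanosome and melanocyte genes, 12 were tested, with 0 past the threshold in each genotype comparison and 6 higher and 2 lower in run 2. The 2 lower were Tyr (-2.27 on the log2 scale, edgeR adjusted p = 0.00019) and Oca2 (-1.29, adjusted p = 0.0134). Slc24a5, a cation exchanger of melanosomes, measured 1.08 to 11.4 CPM (median 4.07) in run 1 and 40.7 to 78.5 CPM (median 52.9) in run 2. Mreg, which takes part in melanosome transfer, measured 6.87 to 27.3 and 26.3 to 44.2 CPM, and Rab27a, a GTPase of melanosome transport, 3.9 to 22.1 and 14.3 to 33.5 CPM. The median log2 fold change between runs was 0.19, -0.30 and 0.45 in the 3 lists, and 0.04 over all genes.

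How the genes varied together was read within each run, as Pearson's r of log2 CPM between libraries. In run 1 (n = 18), 31 of 36 pairs were positive, with a median r of 0.356 (-0.25 to 0.838), and in run 2 (n = 9) 22 of 36 were, with a median of 0.153 (-0.403 to 0.88). Over all pairs of tested genes the median r was 0.00 and 0.01, and 0.54% and 1.04% of pairs reached 0.8; of the 36 member pairs 1 and 3 did. Library makeup is shared by all genes of a library, so pairs are not independent. Among the 10 pairs of pigment epithelium genes the median r was 0.431 in run 1 and 0.777 in run 2. Among the 6 pairs of melanosome genes it was 0.318 and 0.036, and in the 20 pairs between these groups 0.275 and -0.06.

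Rgr and Ttr varied together in run 1, with r = 0.838 and Spearman's rho = 0.839. The permutation p was 1e-05 for r, the smallest that 100000 resamples can give, with adjusted p of 0.00072 for r and 0.00144 for rho over 72 relations, and r was 0.749 without the 2 libraries farthest from the Rgr median. This was the only pair of the 72 past an adjusted p of 0.05. Rgr and Rdh5 in run 1 had r = 0.681 and rho = 0.62 (permutation p = 0.00183 and 0.00737, adjusted 0.0574 and 0.207; 0.447 without the farthest libraries). Rpe65 and Rgr had r = 0.518 and rho = 0.426 (permutation p = 0.0282 and 0.0802, adjusted 0.156 and 0.385; r = 0.779 without the farthest).

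In run 2, 0 of 36 pairs passed the adjusted threshold. Several high correlations fell without the 2 libraries farthest from the median of the pair's first-named gene. Rpe65 and Ttr had r = 0.88 and rho = 0.65 (exact permutation p = 0.00239 and 0.0666, adjusted 0.0574 and 0.369). Their r was 0.399 without the libraries farthest in Rpe65. Leaving out extreme libraries also narrows the range, so this fall does not show what the relation rested on. Rgr and Rdh5 had r = 0.876 and rho = 0.717 (exact permutation p = 0.00368 and 0.0369, adjusted 0.0662 and 0.337), with r = 0.724 without the farthest. Rpe65 and Rgr had r = 0.823 and rho = 0.733 (exact permutation p = 0.00594 and 0.0311, adjusted 0.0855 and 0.337), with r = 0.608 without the farthest. Rgr and Ttr had r = 0.796 and rho = 0.567 (exact permutation p = 0.0115 and 0.121, adjusted 0.105 and 0.415). Their r was 0.258 without the libraries farthest in Rgr, Gne+/- C3-/- mouse 8 and C3-/- mouse 9, which are not the pair farthest in Rpe65. Without Gne+/- C3-/- mouse 8 and C3-/- mouse 7, the libraries highest in Rpe65, the median r among pigment epithelium pairs was 0.239 over the other 7 libraries. There 9 of the 10 pairs were positive.

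**Figure D4:**
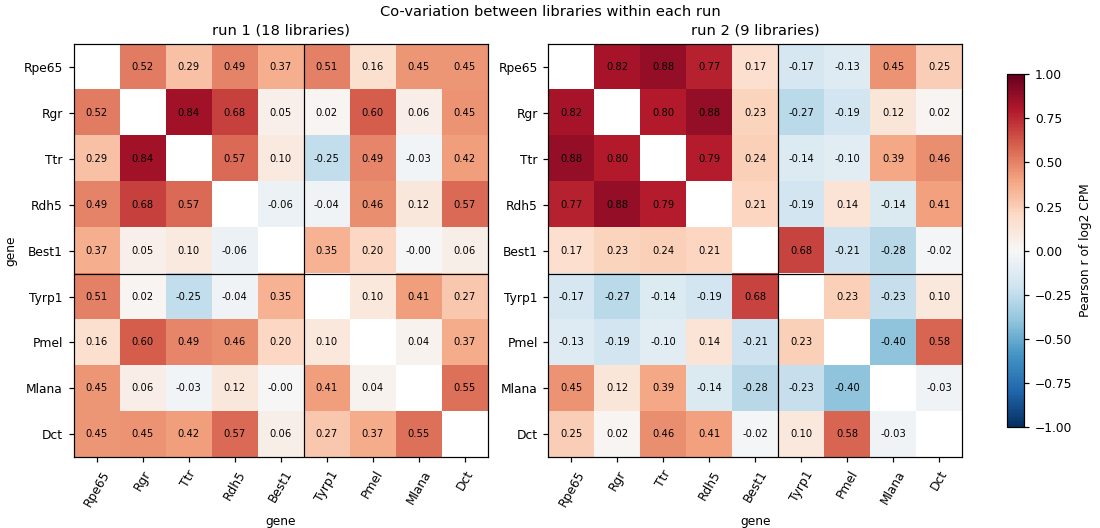
Pearson's r of log2 CPM for each pair of the 9 genes, in the 18 libraries of run 1 (left) and the 9 of run 2 (right); lines part pigment epithelium from melanosome genes. Rgr with Ttr is the highest pair of run 1 (0.838), and Rpe65, Rgr, Ttr and Rdh5 form the block of high values in run 2.

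**Figure D5:**
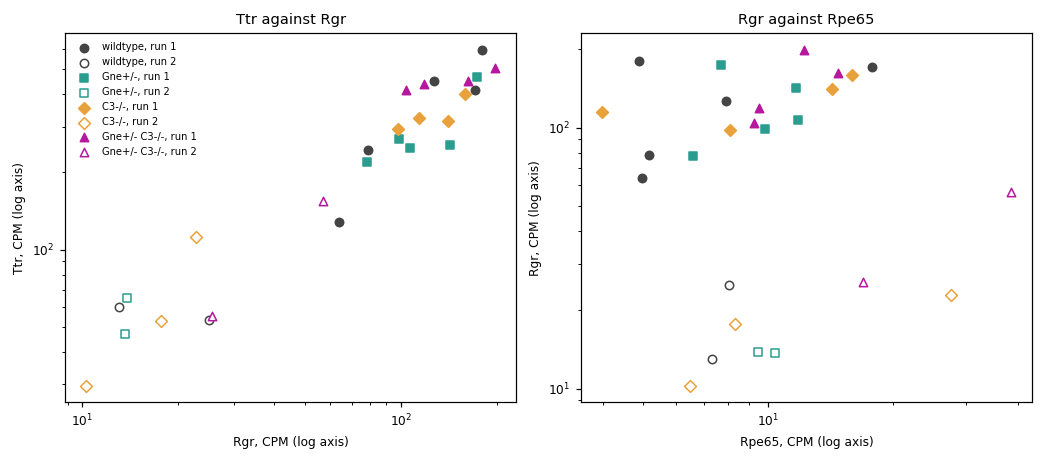
Ttr against Rgr (left) and Rgr against Rpe65 (right), CPM on log axes, 1 point per library, with genotypes by shape and colour and run 2 open. Ttr and Rgr lie along the same line in both runs (median ratio 2.75 and 2.99), whereas the runs form separate clouds for Rgr against Rpe65 (12.1 and 1.51).

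With each run centred on its own mean, likeness was ranked over 17408 other genes and all 27 libraries, as a description. Ttr (r = 0.812) and Rdh5 (0.788) were the genes most like Rgr, in places 1 and 2, and Rpe65 (0.675) was in place 5. Rgr was in place 1 for Rpe65 and for Rdh5, and in place 2 for Ttr. Among the melanosome genes, the best place that any held for another was that of Dct for Pmel, 107 (r = 0.452). Dct was most like Rdh5 of the 9 genes, in place 61 (r = 0.488). Of genes outside the set, Ptgds, prostaglandin D synthase, was the most like Ttr (0.863), Rdh5 (0.787) and Rgr (0.764). It measured 104 to 442 CPM in run 1 and 64.9 to 236 CPM in run 2. Col8a2, a collagen, followed for Ttr (0.774) and Rgr (0.72) and was in place 3 of the outside genes for Rpe65 (0.627), as Trf, transferrin, was for Ttr (0.677) and Rgr (0.637). Col8a2 measured 8.66 to 57.4 CPM in run 1 and 2.15 to 10.7 CPM in run 2, and Trf 81.3 to 212 and 33 to 96.7 CPM.

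The genes most like the others shared no name among them. For Rpe65 the first outside gene was Slc39a3 (0.655), and for Rdh5 Actr1a (0.663) and Rhof (0.648) came after Ptgds. Tyrp1 was most like Prph2 (0.831), a photoreceptor disc protein, Dtymk (0.829) and Svip (0.817), although Tyrp1 had 534 counts in all. Best1 was most like Farp2 (0.693) and Mydgf (0.676), Pmel like 4933407L21Rik (0.708), Mlana like Rap2b (0.662) and Kit (0.654), and Dct like Nmnat1 (0.649) and Lrrfip2 (0.649).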

How the data were processed

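The authors deposited unnormalized counts of reads in each gene. Alignment used STAR 2.7.3a and counting featureCounts (Subread 2.0.0), per the submitters' processing notes; the version recorded was 2.0.3 with Ensembl release 101 on GRCm38, per the file headers. The headers show exon and gene features, no strand option and no option for reads that overlap several genes. The 27 single tables equalled the series table, and 55141 of 55487 identifiers had a symbol.

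Counts were analysed with edgeR 4.0.16 (R 4.3.3). Genes were filtered with filterByExpr (minimum count 10), which left 17409 genes. TMM scaling and the robust quasi-likelihood test were used, with 4 genotypes and the sequencing run in the model, 22 residual degrees of freedom and a biological coefficient of variation of 55.1%. Adjusted p-values are those of Benjamini and Hochberg over all tested genes, with a threshold of 0.05. Correlations used log2 CPM with a prior count of 2. The SEs of log2 fold changes come from the edgeR fit, which includes the spread between libraries. The CPM floors are a fixed small count scaled to each library, and they are not an error estimate. Without molecular identifiers, PCR copies are counted again.

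The genes, lists and tests were chosen with earlier results of these data known. Named were the 10 genes, Gne and C3, the 3 outside genes most like each of the 10, and up to 4 genes of each list by mean CPM. Of the like genes, those with provisional names are mostly left out. Alternatives were DESeq2 1.42.0, RLE scaling, no or a stricter filter (over 1 CPM in 6 libraries), no run term, each run alone, the mouse number as a block, and each library left out. The lowest chi-square per degree of freedom between libraries of a genotype was 10.2 over 78 pairs, so none was a duplicate. The procedure was tested on simulated data with known changes; in run 2 against run 1, 48% of 2-fold and 84% of 4-fold changes were recovered over 17409 genes. Correlation p-values were tested on simulated pairs.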

Additional observations from a re-analysis of the deposited data

Results flagged for a closer look

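Over 36 groups of 6 or 7 run-centred values, Dixon's gap ratio marked 2 libraries as apart from their group, where chance marks about 1 in 20 groups. Rpe65 in wildtype mouse 1 measured 17.8 CPM, and its gap was 0.627 of the range of the 7 wildtype values, above the critical value of 0.568. Mlana in Gne+/- C3-/- mouse 4 measured 7.95 CPM, with a gap of 0.684 of the range of the 6 Gne+/- C3-/- values against a critical value of 0.625. The same Gne+/- C3-/- mouse 4 also held the highest Dct, Rgr and Rdh5 levels of the study (39.4, 198 and 34.8 CPM).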

How the results depend on the processing

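Among the 9 genes, 0 were called in each genotype comparison under each alternative run, with the exception of Gne+/- C3-/- against Gne+/- without the low-count filter, where 2 were. Rgr, Ttr and Rdh5 remained lower in run 2 under each of the settings that allow that comparison; DESeq2 called 5 genes, adding Best1 and Mlana, as did the fit without Gne+/- mouse 7 (3 to 5 over libraries left out). Best1 passed with RLE scaling, no filter, a stricter filter and DESeq2 (2.25, 2.26, 2.16 and 2.38). Leaving out Gne+/- C3-/- mouse 8 and C3-/- mouse 7 turned Rpe65 between runs to -0.03 and the median co-variation of run 2 to -0.015. That median was -0.005 to 0.319 with 1 library left out, negative without C3-/- mouse 7. Dct between runs was -0.28 to 0.09 and was above 0 without Gne+/- C3-/- mouse 4 or 7; in run 2 alone, Dct in Gne+/- C3-/- against wildtype was -0.23. The cause was not tested.

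Counts of all genes called moved more. In the order Gne+/- against wildtype, Gne+/- C3-/- against C3-/-, interaction, C3-/- against wildtype, then Gne+/- C3-/- against each of Gne+/- and wildtype, the main counts of 1, 1, 0, 29, 33 and 27 became 72, 9, 30, 91, 306 and 118 without the filter. DESeq2 gave 8 in the first and 63, 87 and 56 in the last 3. Without the run term the counts were 0 and 0 in the first 2 and 13, 13 and 13 in the last 3. Run 2 alone gave 5, 4, 11 and 15 for Gne+/- C3-/- against C3-/-, the interaction, and Gne+/- C3-/- against Gne+/- and wildtype. With a library left out, Gne+/- against wildtype gave 1 to 2 (2 without Gne+/- mouse 5), and Gne+/- C3-/- against Gne+/- 20 to 40 (20 without Gne+/- C3-/- mouse 3).

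With the mouse number as a replicate block, the counts were 1, 1, 0, 23, 27 and 24, and 0 of the 9 genes were called in each. The labels do not say that equal numbers pair mice. Over 31 same-numbered pairs the median correlation of deviations was -0.0421 (-0.16 to 0.256, 4 above 0.1). For pairs of other numbers in the same run it was -0.0302. These values show no sign of pairing in expression, but they cannot exclude it. Because the mouse numbers are nested in runs, the run comparison has no fit with this block, without the run term or in 1 run.

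Best1, Tyrp1 and Mlana had 406, 534 and 633 counts over 27 libraries, which limits them most, and Lrat was not measurable.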
